A study of Mus musculus with 6 samples.

Results

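Matrix metalloproteinases (MMPs) are zinc-dependent enzymes that cut the proteins of the extracellular matrix, and tissue inhibitors of metalloproteinases (TIMPs) are small secreted proteins that bind and block them. Most MMPs are made as inactive proenzymes, which are switched on when another protease removes the propeptide. In the ovary they are known for remodelling the follicle wall and the surface layer around ovulation. The set described here holds 10 genes of the 21164 named genes on the arrays, 7 MMPs (Mmp2, Mmp3, Mmp9, Mmp10, Mmp13, Mmp14 and Mmp19) and 3 inhibitors (Timp1, Timp2 and Timp3). They were chosen by gene symbol, with earlier results of these arrays known, so the number of them that changed is a description and no independent evidence. Each was read by 1 transcript cluster, the group of probes the array design assigns to a gene.

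The arrays carried RNA of B/CMBA.Ov cells, a line from the ovary of BALB/c mice, taken 48 h after lipid transfection with a synthetic microRNA mimic at 20 nM. The mimic was that of mmu-miR-15a-3p for 3 arrays and a negative control for the other 3. All 6 arrays therefore share the cell line, the reagent and the presence of a small RNA duplex, and a single line was used. The labels do not say whether replicates were separate cultures, so p-values reflect only how these arrays differ among themselves, which may be a technical spread.

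MicroRNAs pair with messenger RNAs mainly through their seed. Both strands of the miR-15a precursor are shown because the mimic carried the less studied 3′ arm, whose seed differs from that of the 5′ arm. The sequences are RefSeq's on GRCm38.p6, chr14:61632038-61632059 for the 3′ arm and chr14:61632075-61632096 for the 5′ arm, both on the minus strand, with the seed (bases 2 to 8) in capitals.
mmu-miR-15a-3p: cAGGCCAUacugugcugccuca
mmu-miR-15a-5p: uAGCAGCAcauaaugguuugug

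Over the whole series, limma with Benjamini-Hochberg adjustment called 1194 genes lower (5.64%) and 1287 higher (6.08%) in cells given the miR-15a-3p mimic at an adjusted p under 0.05, which is 11.7% of all genes tested and 19.2% of those at or above the median level. The median difference of all genes was 0.01 on the log2 scale. Leaving out some single arrays lowered these counts by more than 1.5 times. The lower genes numbered 777 without mimic replicate 2, 757 without mimic replicate 3 and 605 without control replicate 3, and the higher ones 821 without mimic replicate 1, 791 without mimic replicate 3 and 676 without control replicate 3. Of 7 listed markers of mesothelium and ovarian surface epithelium, all 7 were no dimmer on average than the median gene (mean log2 value 7.27), and so were 6 of 8 fibroblast markers, 2 of 8 of macrophages and leukocytes, and 0 of 5 each of granulosa cells, of theca and other steroid-making cells and of endothelium. Detection calls were not among the values used, so dim genes cannot be told from background.

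Of the 10 genes, 3 fell in cells given the miR-15a-3p mimic: Mmp13, a secreted collagenase, and the stromelysins Mmp3 and Mmp10. None of the 10 rose by this test (Timp2 reached an unadjusted p under 0.05), and the other 7, which include the gelatinases, the membrane-type enzyme and the TIMPs, did not pass the test. The largest fall brought Mmp13 to 0.304 of its level in control cells. The median difference of the 10 genes was -0.02 on the log2 scale, beside 0.01 for all genes. An unadjusted p under 0.05 was reached by 4 of the 10, against 24.1% of all genes.

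**Figure D1:**
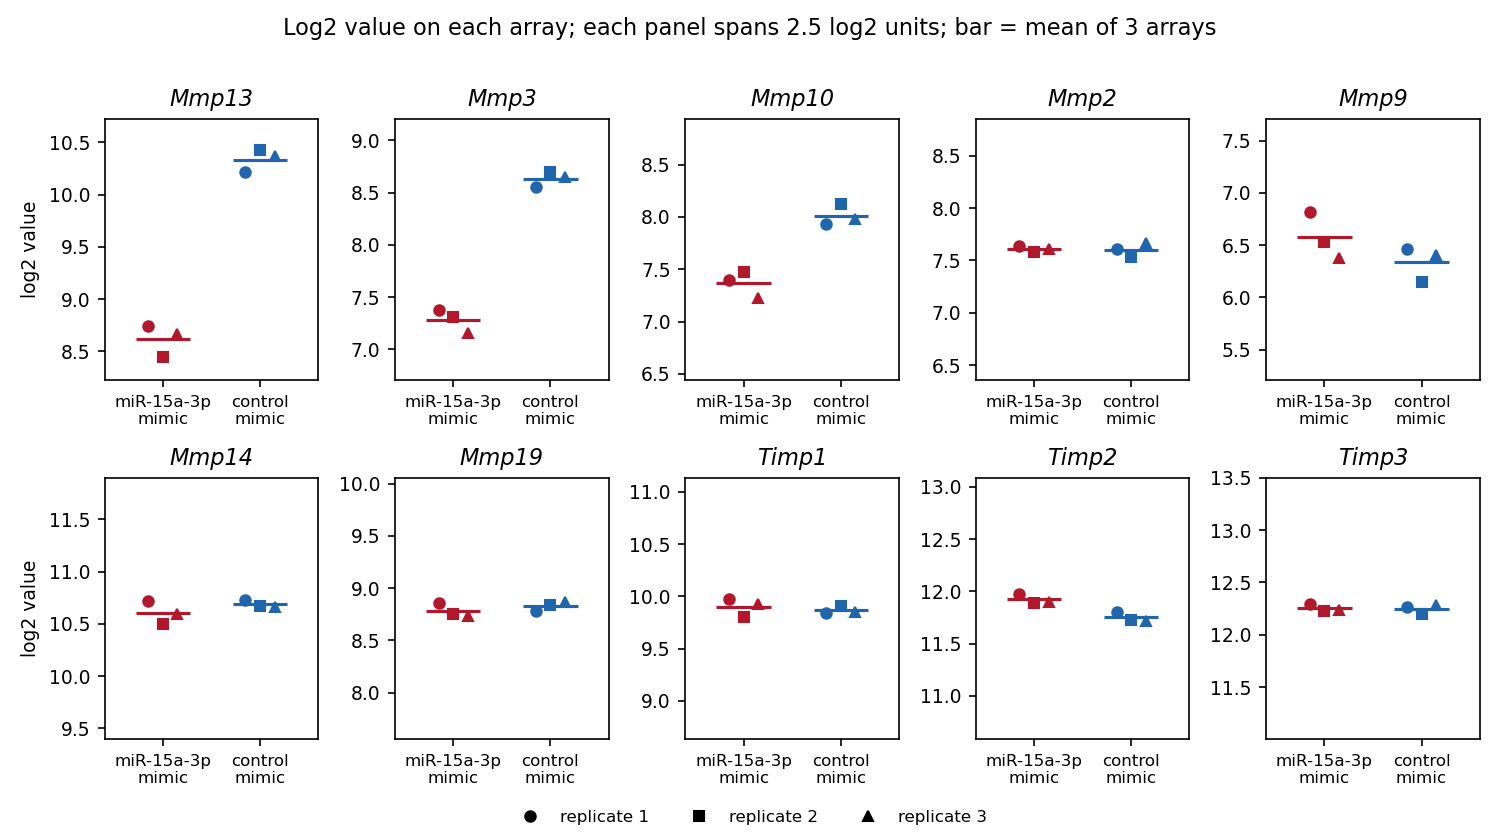
The log2 value of each of the 10 genes on each array, with cells given the miR-15a-3p mimic left of cells given the control mimic, symbols for the replicates and a bar for the mean of 3 arrays and panels of equal span. The groups are far apart for Mmp13, Mmp3 and Mmp10, narrowly apart for Timp2, and overlap for the other 6 genes.

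Mmp13 encodes a collagenase that cleaves fibrillar collagens, with a strong preference for type II collagen. Its log2 values were 8.74, 8.45 and 8.66 with the miR-15a-3p mimic, against 10.21, 10.42 and 10.37 with the control. Every mimic array lay more than 1 log2 unit below every control array. The difference was -1.72 ± 0.09 (SE) on the log2 scale (limma adjusted p = 1.09e-05), a ratio of 0.304 with a 95% confidence interval from 0.264 to 0.350.

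Mmp3 encodes stromelysin-1, which degrades proteoglycans, fibronectin and laminin and can activate other MMP proenzymes. Cells given the miR-15a-3p mimic had log2 values of 7.38, 7.31 and 7.15, against 8.55, 8.70 and 8.65 in control cells. The groups did not overlap, and the difference of -1.35 ± 0.08 (SE; limma adjusted p = 1.63e-05) equals a ratio of 0.392 (95% confidence interval 0.348 to 0.441).

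Mmp10 encodes stromelysin-2, a close relative of Mmp3 with a similar range of substrates. Log2 values of 7.40, 7.48 and 7.23 were read with the miR-15a-3p mimic, against 7.93, 8.13 and 7.98 with the control. These groups were apart too, by a difference of -0.65 ± 0.08 (SE) on the log2 scale (limma adjusted p = 0.00116) and a ratio of 0.639 (95% confidence interval 0.561 to 0.727).  Both genes are similar in sequence, and the files do not show whether probes of one also read the other.

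Groups that do not overlap were found in 4 of the 10 genes, against 29.6% of all genes. They were these 3 genes in the downward direction, against 13.2% of all genes, and 1 gene, Timp2, in the upward direction, against 16.4% of all genes. The 3 falls were called in each of the 12 alternative fits, which included every fit with 1 array left out. Without 1 array at a time their differences ranged from -1.78 to -1.63 for Mmp13, from -1.40 to -1.29 for Mmp3 and from -0.70 to -0.58 for Mmp10.

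The gelatinases, which digest denatured collagen and type IV collagen of basement membranes, did not pass the test. Mmp2 had log2 values of 7.63, 7.59 and 7.61 with the miR-15a-3p mimic, against 7.61, 7.53 and 7.67 with the control. Its difference was 0.01 with a 95% confidence interval from -0.13 to 0.15 (limma adjusted p = 0.956), or 0.912 to 1.11 of control as a ratio. This interval covers only the spread among these arrays. For Mmp9 the values were 6.82, 6.54 and 6.38 with the miR-15a-3p mimic and 6.47, 6.15 and 6.40 with the control. Mmp9 was the noisiest of the 10, with an SD of 0.224 in cells given the miR-15a-3p mimic and 0.166 in control cells (n = 3 each). Its difference of 0.24 had an interval from -0.03 to 0.50 on the log2 scale (limma adjusted p = 0.263), which leaves room for a rise of up to 1.42-fold. Leaving out 1 array moved the Mmp9 difference to between 0.12 (without mimic replicate 1) and 0.34 (without mimic replicate 3). The mean of Mmp9, 6.46, was below the median of gene means.

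Mmp14 and Mmp19 also kept overlapping groups. Mmp14 encodes a membrane-anchored collagenase that activates the Mmp2 proenzyme at the cell surface, with Timp2 as the bridge between them. Its log2 values were 10.72, 10.50 and 10.60 with the miR-15a-3p mimic, against 10.73, 10.67 and 10.66 with the control (difference -0.08, 95% confidence interval -0.24 to 0.08; limma adjusted p = 0.558). Mmp19, a secreted enzyme that cleaves components of basement membranes, had values of 8.86, 8.75 and 8.74 with the miR-15a-3p mimic and 8.78, 8.84 and 8.87 with the control. The Mmp19 difference was -0.05, with a 95% confidence interval from -0.19 to 0.10 (limma adjusted p = 0.747).

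Among the inhibitors, Timp2 stood apart from Timp1 and Timp3 by its groups, though not by the test. Timp2, which inhibits most MMPs and also takes part in activating the Mmp2 proenzyme, had log2 values of 11.97, 11.89 and 11.90 with the miR-15a-3p mimic. In control cells Timp2 had 11.80, 11.73 and 11.72, all below the lowest mimic value. The difference was 0.17 ± 0.06 (SE), a ratio of 1.13 with a 95% confidence interval from 1.02 to 1.24. Its unadjusted limma p was 0.0207 and its adjusted p 0.117, and it passed in 1 of 12 alternatives (adjusted p from 0.0438 to 0.348), the fit restricted to genes at or above the median level.

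Timp1, the inhibitor that also binds the Mmp9 proenzyme, had log2 values of 9.98, 9.80 and 9.92 with the miR-15a-3p mimic, against 9.85, 9.91 and 9.85 with the control. Its difference was 0.03 (95% confidence interval -0.12 to 0.18; limma adjusted p = 0.835). Timp3, which is held in the matrix and also inhibits ADAM and ADAMTS proteases, had 12.29, 12.23 and 12.23 with the miR-15a-3p mimic and 12.27, 12.20 and 12.28 with the control. The Timp3 difference was 0.00, with a 95% confidence interval from -0.14 to 0.14 (limma adjusted p = 0.994). As a ratio the Timp3 interval runs from 0.911 to 1.10 of control, and it covers only the spread among these arrays.

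Mimic replicate 1 gave the highest of the 3 mimic values in 9 of the 10 genes, all but Mmp10, while it was the highest in 48.7% of all genes. Without that array the falls of Mmp13, Mmp3 and Mmp10 were called and none of the other 7 genes was, and the difference was 0.12 for Mmp9, -0.14 for Mmp14, -0.0050 for Timp1 and -0.0027 for Mmp2.

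The authors' deposited table gives a ratio and an unadjusted p for each exon-level probe set, a small group of probes within a gene, and so shows whether a gene moved along its length. It rests on the same experiment and is no independent evidence. The variance of its contrast was 0.833 times the error variance. A fit of 2 against 3 arrays has that ratio, while all 6 arrays would have 0.667. Over all 241419 probe sets of the authors' deposited table, 6.44% were lower and 5.51% higher with p under 0.05.

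All 11 probe sets of Mmp13 were lower with p under 0.05 by the authors' deposited table, at ratios from 0.184 to 0.365. For Mmp3 the authors' deposited table has 7 of 8 probe sets lower with p under 0.05, at ratios from 0.228 to 0.409, and the remaining one at 0.963. Mmp10 split in the authors' deposited table: the first 3 of its 9 probe sets by ID had ratios from 0.946 to 1.18, and the other 6 had ratios from 0.371 to 0.435. Of those 6, 5 had p under 0.05. The ratio of the whole Mmp10 cluster, 0.639, thus lies between both classes of probe set, and most of the gene's probe sets fell further than the cluster value.

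The other genes of the set showed no such run. In the authors' deposited table a p under 0.05 was reached by 1 of 14 probe sets of Mmp2 (ratio 0.604), 1 of 13 of Mmp9 (ratio 2.14), 0 of 12 of Mmp14 and 2 of 11 of Mmp19. Timp1 had 0 of 6 such probe sets, Timp2 2 of 9 and Timp3 1 of 9, again from the authors' deposited table. Ratios leaned to 1 side in some of these genes: above 1 in 8 of 9 probe sets of Timp2 (median 1.12) and 11 of 13 of Mmp9 (median 1.17), and below 1 in 10 of 12 of Mmp14 (median 0.908), each from the authors' deposited table. The authors' deposited list of probe sets with p under 0.05 and at least a 2-fold fall, 0.732% of all, held 11 of Mmp13, 7 of Mmp3, 5 of Mmp10 and none (0) of the other 7 genes.

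**Figure D2:**
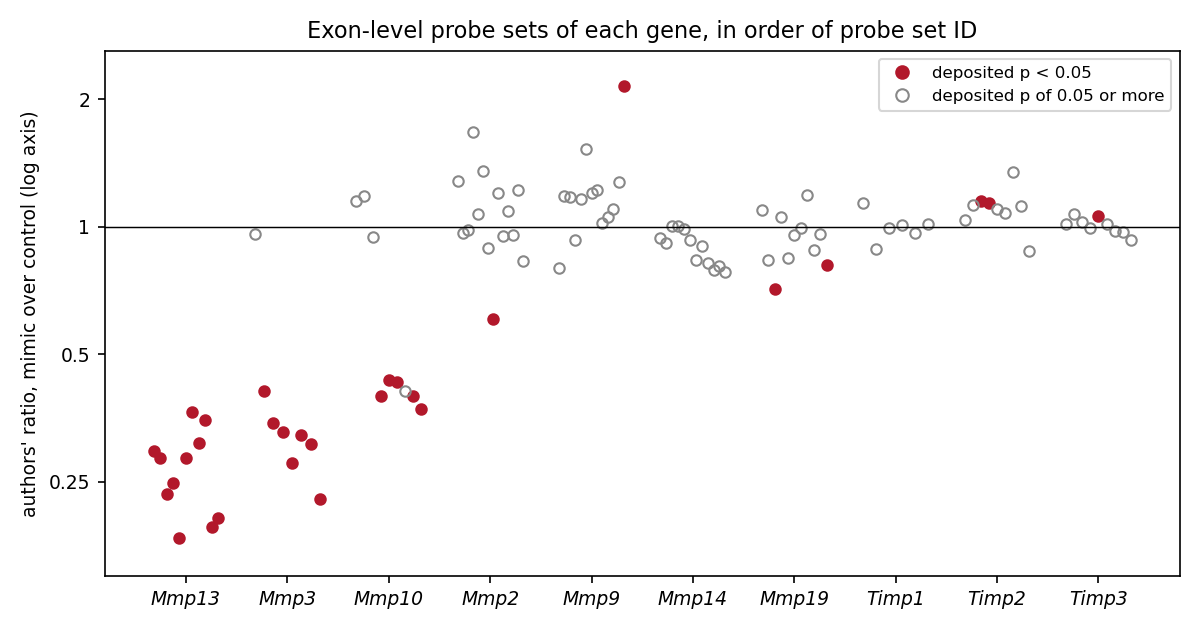
The ratio of the miR-15a-3p mimic over the control in the authors' deposited table (log axis) for each exon-level probe set of the 10 genes, placed in order of probe set ID; filled points have a deposited p under 0.05. Mmp13 lies wholly at or below 0.365, Mmp3 has 1 probe set near 1, Mmp10 has 3, and the other genes lie nearer to 1, mostly above it for Mmp9 and Timp2 and mostly below it for Mmp14.

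Mmp13, Mmp3 and Mmp10 are neighbours. In the RefSeq order of GRCm38.p6, used for gene order alone, 10 MMP genes stand next to each other on chromosome 9 with no other protein-coding gene between them. Of these 10, 5 fell and 0 rose in cells given the miR-15a-3p mimic, against 5.64% lower and 6.08% higher of all genes. The 5 falls count Mmp13, Mmp3 and Mmp10 of the set too. The median difference of these 10 genes was -0.24 on the log2 scale. Of 12 MMP genes elsewhere in the genome 0 fell by limma (1, Mmp23, had an unadjusted p under 0.05 downward) and 2 rose, with a median of -0.04. This grouping by chromosome was made after the values were seen, and no test of it was made. The protein-coding genes on either side of the group, Dcun1d5 and Tmem123, were not called (Dcun1d5 -0.11, limma adjusted p = 0.339; Tmem123 -0.02, 0.901).

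Both further falls in this group were in Mmp8 and Mmp27. Mmp8, the collagenase known from neutrophils, had log2 values of 5.10, 5.20 and 5.21 with the miR-15a-3p mimic, against 5.83, 6.08 and 5.82 with the control. Its difference was -0.74 ± 0.08 (SE; limma adjusted p = 0.000548), although the gene was dim. Each of its 11 probe sets had a ratio under 1 in the authors' deposited table, 4 with p under 0.05. Mmp27 had 6.74, 7.01 and 6.96 with the miR-15a-3p mimic and 7.20, 7.22 and 7.32 with the control, a difference of -0.34 (limma adjusted p = 0.0254). The call of Mmp27 was lost without mimic replicate 1 (limma adjusted p = 0.0586) and without control replicate 3 (0.116).

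The remaining genes of the group were not called: Mmp12, the macrophage elastase, Mmp1b and Mmp1a, the mouse counterparts of interstitial collagenase, Mmp20, the enamel protease, and Mmp7, matrilysin. Their differences on the log2 scale were -0.13 for Mmp12, 0.17 for Mmp1b, -0.08 for Mmp1a, -0.04 for Mmp20 and 0.23 for Mmp7. All 5 had means below the median of gene means. The fallen genes thus do not form an unbroken run, since Mmp12 and Mmp1b stand between Mmp13 and Mmp3, and Mmp1a between Mmp3 and Mmp10, while Mmp10, Mmp8 and Mmp27 are next to each other. Without control replicate 1, Mmp7 was called higher (limma adjusted p = 0.0322).

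Mmp11 and Mmp15, which lie elsewhere, rose. Mmp11, stromelysin-3, an enzyme typical of stroma around tumours that furin activates inside the cell, had log2 values of 10.14, 10.06 and 10.10 with the miR-15a-3p mimic, against 9.45, 9.57 and 9.50 with the control. Its difference was 0.59 ± 0.06 (SE; limma adjusted p = 0.000429), a ratio of 1.51. Mmp15, a membrane-type enzyme related to Mmp14, had 7.75, 7.72 and 7.74 with the miR-15a-3p mimic and 7.07, 7.03 and 6.86 with the control. The Mmp15 difference was 0.75 ± 0.07 (SE; limma adjusted p = 0.000249), a ratio of 1.68. Both calls held in each fit with 1 array left out. In all, 2 of the 15 measured MMPs outside the set fell and 2 rose, 26.7% against 11.7% of all genes, with a median difference of -0.04.

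**Figure D3:**
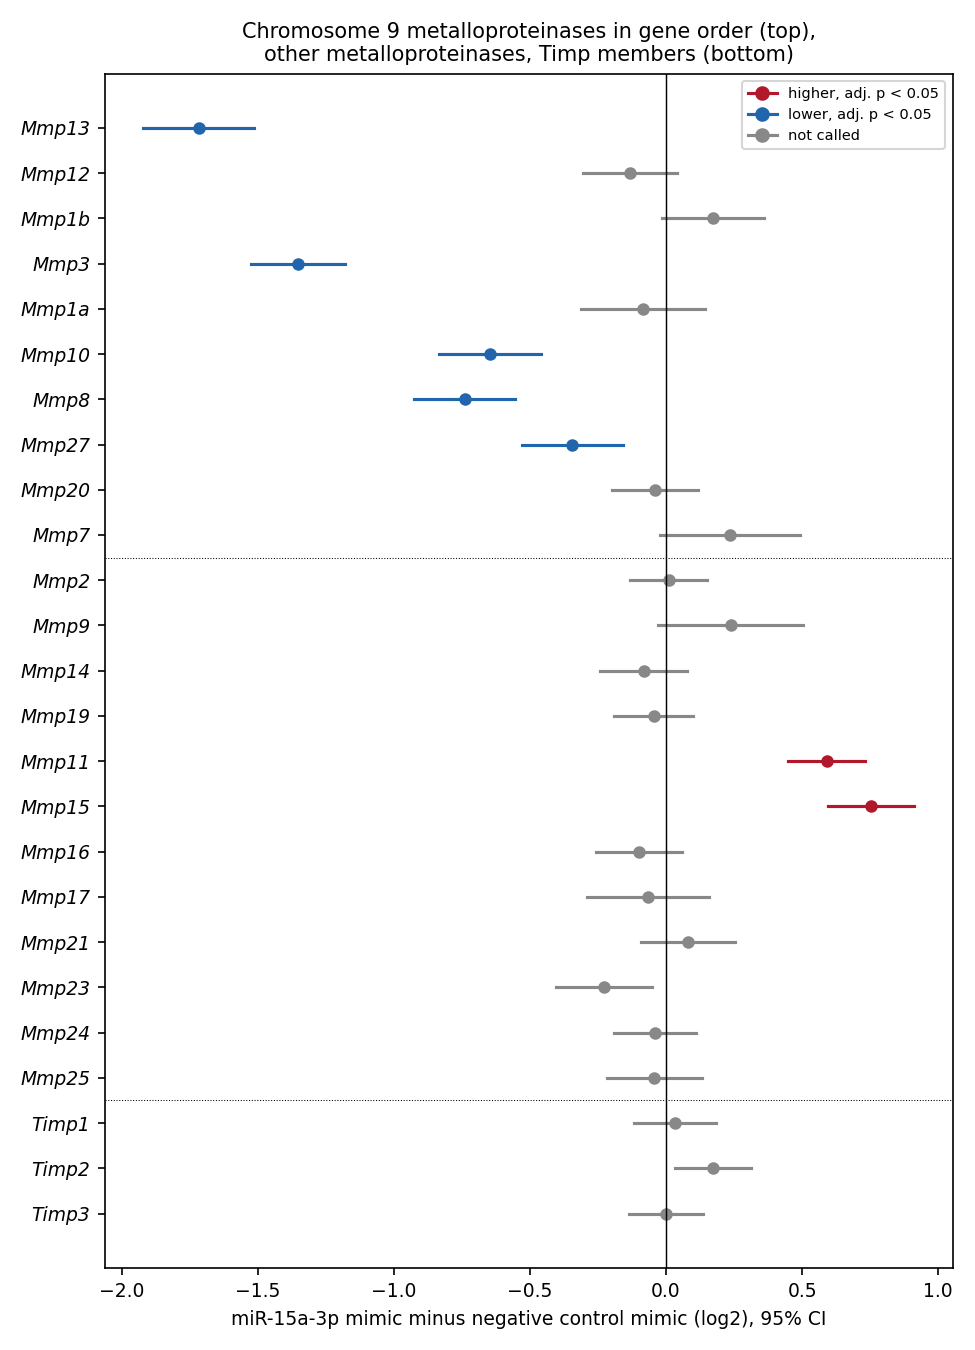
The difference between cells given the miR-15a-3p mimic and cells given the control mimic (log2, horizontal axis) with its 95% confidence interval for the 10 MMP genes of chromosome 9 in gene order (top), 12 other MMP genes (middle) and the TIMPs (bottom). The 5 falls lie in the upper block, between -1.72 and -0.34, and both rises, 0.59 and 0.75, in the middle one.

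Stromelysin and collagenase promoters are known to be driven through AP-1, the dimer of Fos and Jun proteins, near a TATA box. RefSeq promoter windows on GRCm38.p6, from 250 bases before to 50 after each start, were searched for the AP-1 motif, TGACTCA or TGAGTCA, which are each other's reverse complement, so both strands were covered. The motif was found in 5.2% of 32851 windows of all genes. Of the 7 genes of the set with a window (Mmp2, Mmp9 and Mmp19 were not searched), it was found in Mmp13, Mmp3 and Mmp10. It was not found in Mmp14, Timp1, Timp2 or Timp3. On chromosome 9 it was found in 7 of the 10 MMP genes, 3 of which fell while 4 were not called. Of the 3 without it, 2 fell and 1 was not called. The 4 genes with the motif that were not called were all dimmer than the median gene, with mean log2 values from 4.18 (Mmp1b) to 6.51 (Mmp7). The 3 without it were dimmer too: Mmp8 (5.54) and Mmp27 (7.08), which fell, and Mmp20 (5.85), which was not called. Whether signal level bears on these calls was not tested.

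The windows around the motif are shown for all 7 so that fallen genes can be set beside genes not called. Each runs from 20 bases before the AP-1 motif to 60 after it on the strand of the gene, and capitals mark the AP-1 motif and the TATAAA that follows. TATAAA, searched on the strand of the gene alone, was found in 8.32% of all windows. Between both motifs lie 12 bases in Mmp13 and 27 to 41 in the others. The marked TATAAA began at -49 from the annotated start in Mmp1b, -29 in Mmp10, -28 in Mmp1a and -26 in Mmp7. In Mmp13 it began at -16, in Mmp3 at -7, and in Mmp12 at 4, past the start. Whether any of them acts as a TATA box was not tested. Mmp13, Mmp3 and Mmp10 (chr9:7272459-7272545, chr9:7445756-7445842 and chr9:7502259-7502345, plus strand) fell. Mmp12, Mmp1a and Mmp7 (chr9:7347310-7347396, chr9:7464048-7464134 and chr9:7692007-7692093, plus strand) and Mmp1b (chr9:7388053-7388139, minus strand) were not called. For Mmp12 and Mmp7, 1 of 2 annotated starts held the motif. A match is a match of letters and not a measured binding site.
Mmp13: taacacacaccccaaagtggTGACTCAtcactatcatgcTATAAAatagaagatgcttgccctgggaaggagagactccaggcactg
Mmp3: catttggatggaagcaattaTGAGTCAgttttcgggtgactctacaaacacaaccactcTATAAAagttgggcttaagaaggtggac
Mmp10: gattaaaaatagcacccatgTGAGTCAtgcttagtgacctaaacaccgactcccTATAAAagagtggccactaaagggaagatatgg
Mmp12: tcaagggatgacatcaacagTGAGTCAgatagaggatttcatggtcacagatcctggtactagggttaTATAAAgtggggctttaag
Mmp1a: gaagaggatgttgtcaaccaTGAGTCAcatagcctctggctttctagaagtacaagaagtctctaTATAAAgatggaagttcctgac
Mmp7: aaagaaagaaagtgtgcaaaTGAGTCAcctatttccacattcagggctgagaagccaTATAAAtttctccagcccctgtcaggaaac
Mmp1b: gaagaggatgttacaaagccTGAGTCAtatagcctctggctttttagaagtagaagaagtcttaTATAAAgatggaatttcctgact

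Genes of transcription factors that act at such promoters were mostly not called. Of 16 AP-1, ETS and Runx genes 1 fell, Ets2 (difference -0.28; limma adjusted p = 0.0324), and 0 rose by limma (4 with an unadjusted p under 0.05 upward), 6.25% called against 11.7% of all genes. The Ets2 call was lost in 5 of the 6 fits without 1 array, all but the one without control replicate 1 (adjusted p from 0.0535 to 0.158). The median difference of the list was 0.10 on the log2 scale, against 0.01 for all genes. Fos, an immediate early gene of AP-1, had log2 values of 9.05, 8.94 and 8.99 with the miR-15a-3p mimic and 8.86, 8.86 and 8.87 with the control (difference 0.13; limma adjusted p = 0.224). Jun had a difference of 0.12 (adjusted p = 0.288) and Fosl1 of 0.01 (adjusted p = 0.969). In the fit restricted to genes at or above the median level, Fosl2, Etv1 and Runx2 were called higher.

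Among genes that turn MMP proenzymes on, or bind and clear MMPs, Furin and Cldn1 fell and Cd44 rose. That is 3 of 9 (33.3%), with a median difference of -0.08. For comparison, 11.7% of all genes were called and 19.2% of those at or above the median level, as 7 of the 9 were. The list counts Mmp14 too. Furin, the convertase that activates Mmp14 and Mmp11 in the secretory pathway, had log2 values of 8.85, 8.55 and 8.76 with the miR-15a-3p mimic, against 8.97, 9.13 and 9.08 with the control (difference -0.34; limma adjusted p = 0.0312). The Furin call was lost without mimic replicate 2 or 3 or control replicate 2 or 3 (adjusted p from 0.0659 to 0.115). Cd44, the hyaluronan receptor that can hold Mmp9 at the cell surface, had a difference of 0.30 (limma adjusted p = 0.0163), lost without mimic replicate 3 (0.0648) or control replicate 3 (0.0515). Cldn1, a tight junction protein, had a difference of -0.70 (limma adjusted p = 0.000391), and was dim, with means of 5.75 with the miR-15a-3p mimic and 6.45 with the control.

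The plasminogen system ends in plasmin, which activates several MMP proenzymes including that of Mmp3. Of 11 genes of this system 2 were higher and 0 lower (18.2% called, median difference 0.10). This is near the 19.2% called among genes at or above the median level, which 7 of the 11 reached, and 11.7% of all genes were called. Plaur, the receptor that holds urokinase at the cell surface, had log2 values of 9.46, 9.37 and 9.44 with the miR-15a-3p mimic, against 8.71, 8.91 and 8.78 with the control. Its difference of 0.62 ± 0.07 (SE; limma adjusted p = 0.000640) was called in each fit with 1 array left out. Plat, the tissue-type activator, rose by 0.29 (limma adjusted p = 0.0184), a call lost without mimic replicate 1 (0.0503) or control replicate 3 (0.0686). Urokinase itself (Plau, difference -0.14) was not called (limma adjusted p = 0.291), and was dim, with a mean log2 value of 5.94.

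Of 20 genes of the related ADAM and ADAMTS proteases 4 fell and 1 rose (25% called, median difference 0.01). Adam17, the sheddase that releases tumour necrosis factor and EGF receptor ligands, had log2 values of 9.55, 9.53 and 9.60 with the miR-15a-3p mimic, against 9.91, 10.04 and 9.96 with the control (difference -0.41; limma adjusted p = 0.00328). Adamts5, an enzyme that cuts aggrecan and versican, had a difference of -0.43 (limma adjusted p = 0.00449). The calls of Adam17 and Adamts5 held without any single array.

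Less firm were Adamts9 (-0.31; limma adjusted p = 0.0104), Adamts1 (-0.39; 0.0206), both also proteoglycan-cutting enzymes, and Adamts14 (0.32; 0.0225), a procollagen processing enzyme that rose. The Adamts9 call was lost without control replicate 3 (adjusted p = 0.0686). The Adamts1 call was lost in 4 fits, those without replicate 2 or 3 of either group (0.0599 to 0.0794). Adamts14 lost its call in 3 fits, without replicate 1 of either group or mimic replicate 3 (0.0573 to 0.0785). Of 8 further inhibitors of these enzymes, among them Reck (difference -0.03) and Timp4 (-0.15), 0 were called by limma. Timp4 alone reached an unadjusted p under 0.05 in limma.

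Of 20 matrix proteins that MMPs cut, 4 fell, with a median difference of -0.10 over the list. Vcan, the large proteoglycan versican, had log2 values of 9.51, 9.37 and 9.54 with the miR-15a-3p mimic, against 10.21, 10.31 and 10.31 with the control (difference -0.80; limma adjusted p = 0.000186). Spp1, osteopontin (-0.30; adjusted p = 0.0106), Dcn, decorin (-0.30; 0.0109), and Tnc, tenascin (-0.31; 0.0398), were the other 3 that fell. Without control replicate 3 the calls of Spp1, Dcn and Tnc were lost (adjusted p = 0.0652 for Spp1, 0.0571 for Dcn and 0.139 for Tnc), which left Vcan as the 1 fallen gene of the list. The Tnc call was also lost when mimic replicate 2 (0.122), mimic replicate 3 (0.101) or control replicate 2 (0.111) was left out. The fibrillar collagen genes Col1a1, Col1a2 and Col3a1 had differences of -0.08, -0.14 and -0.16 and were not called.

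**Figure D4:**
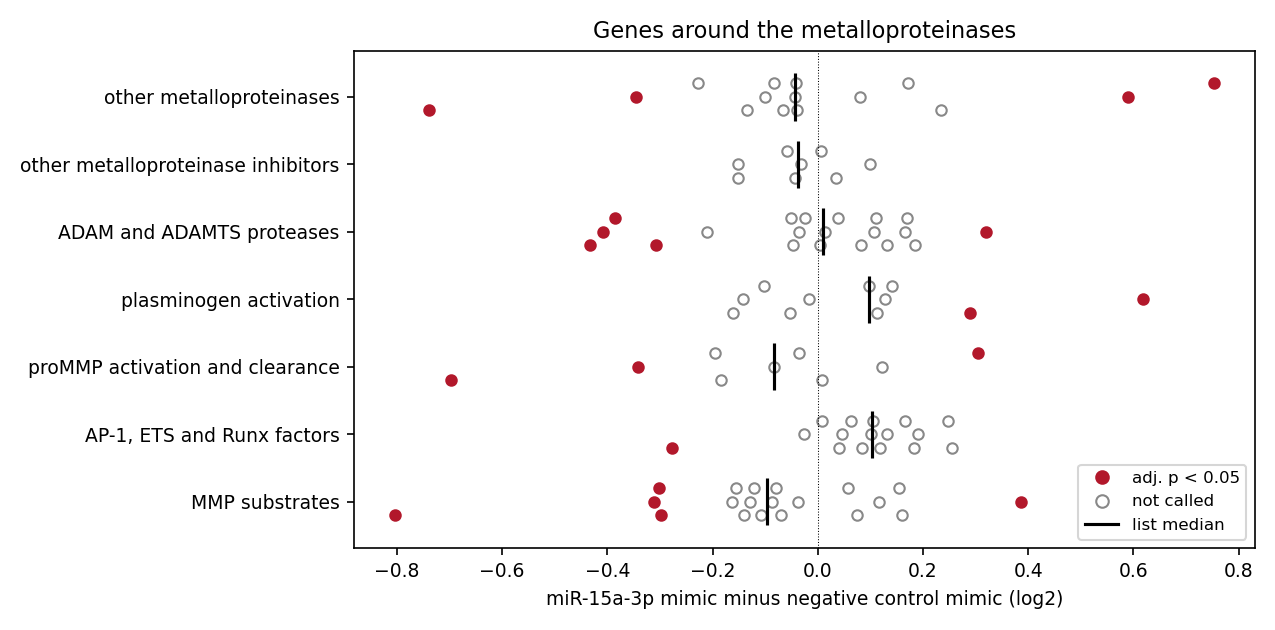
The difference between cells given the miR-15a-3p mimic and cells given the control mimic (log2) for each gene of 7 lists around the MMPs, with filled points for limma adjusted p under 0.05 and a bar at each list's median. Medians lie between -0.10 and 0.10, and most called genes stand outside the bulk of their list.

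Markers of the surface cells moved in the same arrays, in both directions. Of all genes 11.7% were called, and 19.2% of those at or above the median level, where all 7 surface markers lay. Of 7 mesothelial and ovarian surface markers 3 fell (Upk3b, Lrrn4 and Wt1) and 3 rose (Krt8, Krt18 and Krt19), with list means from 9.55 to 9.75 with the miR-15a-3p mimic and from 9.76 to 9.81 with the control. Of 8 fibroblast markers 2 fell (Dcn and Lum) and 1 rose (Pdgfra), with list means from 9.53 to 9.58 with the miR-15a-3p mimic and from 9.61 to 9.64 with the control. Of 5 endothelial markers 1 fell, Tek (-0.52, limma adjusted p = 0.00449). Of 5 granulosa cell markers and 5 of theca and other steroid-making cells 0 were called by limma. Foxl2 (downward) and Lhcgr (upward) reached an unadjusted p under 0.05 in limma. Of 8 macrophage and leukocyte markers 0 were called by limma (Mpeg1 reached an unadjusted p under 0.05), with list means from 6.30 to 6.36 with the miR-15a-3p mimic and from 6.31 to 6.35 with the control, and 6 of these 8 were below the median of gene means. In bulk RNA fewer cells of a type and less RNA per cell cannot be told apart, and the part of these markers in the MMP values was not tested.

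The genes whose log2 values ran most like Mmp13 over the 6 arrays, among those at or above the median level, were Immp1l (Pearson r = 0.9996), Ifit3 (r = 0.9995) and Dctn5 (r = 0.9993), with differences of -0.58, -1.40 and -0.31. For Timp3 they were Nbeal2 (r = 0.980), Epg5 (r = 0.964) and Tmem88 (r = 0.951). The points of each correlation share the arrays, and those of Mmp13 fall into the study's groups, so its high values mostly describe a difference between groups.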

How the data were processed

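RNA of transfected B/CMBA.Ov cells was hybridised to 6 Affymetrix mouse gene arrays. The authors deposited 1 log2 value per transcript cluster and array, and a table of exon-level probe sets with a linear ratio and a p-value. RMA, MAS5, Affymetrix Expression Console and Partek are named in the submitters' processing notes without role or version; these sources give no genome build. Per the file headers, the same table holds scores, a signed fold change and the sums of squares and F of the authors' analysis of variance. Array medians of the log2 values lay between 7.24 and 7.30, so values were tested as deposited. The files give no background signal, and 3 arrays per group limit the precision.

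Clusters were named from the exon-level probe sets whose IDs lie between those of successive clusters. Of 35556 clusters 24158 had 1 symbol, 791 several and 10607 none, and clusters with several or none were not used. The naming was checked on 17009 clusters with at least 4 probe sets: their differences correlated with those of their own probe sets at r = 0.936, and with those of the next cluster at r = 0.0955 (across genes, which are not independent). For 1703 genes with several clusters the one with the highest mean was kept.

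Differences were fitted with limma 3.58.1 (lmFit and eBayes, R 4.3.3), two-sided, unblocked, over 21164 genes with Benjamini-Hochberg adjustment and a threshold of 0.05. The procedure was tested on simulated data. Members and lists were chosen with earlier results of these data known. Named genes are the 10 members, up to 6 called genes per list with the smallest adjusted p, the 3 genes most like Mmp13 and Timp3 each, and some well-known list members that were not called. The gene lists overlap in Mmp14, Dcn, Col1a1 and Col1a2. Sequences are RefSeq's on GRCm38.p6. Alternatives were 2 filters on dim genes, 2 scalings, a replicate block, averaged clusters and each array left out. Some genes of the lists are not reported here.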

Additional observations from a re-analysis of the deposited data

How the results depend on the processing

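Mmp13, Mmp3 and Mmp10 were called lower in all 12 alternatives, and 110 values of the 10 members kept their direction and side of the threshold, while 8 changed sign and 1 passed the threshold. Values of genes close to 0 changed sign: Mmp2 was -0.0013 under quantile normalization, -0.0008 under median centring, -0.0027 without mimic replicate 1 and -0.0261 without control replicate 2. Timp3 was -0.0090 under median centring, -0.0180 without mimic replicate 1 and -0.0241 without control replicate 2, and Timp1 was -0.0050 without mimic replicate 1. Without 1 array at a time the highest values were 0.0418 for Mmp2, 0.0816 for Timp1 and 0.0174 for Timp3. Neither scaling moved the median of all genes by more than 0.02. With genes at or above the median level alone, 1 member was called higher (Timp2), 1 other metalloproteinase lower (Mmp23), 3 ADAM and ADAMTS genes, 3 AP-1, ETS and Runx genes and 0 matrix proteins higher, since fewer genes were tested. With a mean log2 of 6 or more, 1 other metalloproteinase was lower (Mmp27), since Mmp8 was filtered out. Quantile normalization (Runx2) and averaged clusters (Etv1) each called 1 gene of the AP-1, ETS and Runx list higher; the cause was not tested.

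With 1 array left out, 605 to 1121 genes were lower and 676 to 1114 higher, with fewer samples. Other metalloproteinases gave 1 to 2 lower and 2 to 3 higher, ADAM and ADAMTS genes 2 to 4 lower and 0 to 1 higher, the plasminogen system 1 to 2 higher, activation and clearance 1 to 2 lower and 0 to 1 higher, AP-1, ETS and Runx genes 0 to 1 lower and 0 to 1 higher, and matrix proteins 1 to 4 lower.

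Deviations of same-numbered arrays correlated at -0.0543, -0.284 and 0.0383, and those of differently numbered arrays at -0.299 to 0.331. With 3 arrays per group these values cannot show whether the numbers pair the samples. With the replicate number as a block 845 genes were lower and 885 higher, and no call of the 10 members changed. That block left 0 ADAM and ADAMTS genes higher, 1 plasminogen gene higher, 1 activation and clearance gene lower and 0 AP-1, ETS and Runx genes lower.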

Other observations

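Some MMP genes outside the set varied along their length. In the authors' deposited table Mmp15 had 7 of 14 probe sets higher with p under 0.05, with ratios from 0.798 to 6.53, and Mmp11 had 7 of 8, with ratios from 0.907 to 1.76. Mmp23 was not called as a gene, yet each of its 10 probe sets had a ratio under 1 in the authors' deposited table (0.746 to 0.892), 4 with p under 0.05.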
